A study of Mus musculus with 47 samples.

Results

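Mouse chromosome 8 carried 646 expressed genes in these data, which are followed here from the centromeric end to the far end in cultured melanoma cells and in tumors. A gene was taken when its row lay on chromosome 8 in the GENCODE annotation of GRCm39 and its mean over the 8 cultures was at least 1 CPM (counts per 1000000 counts of the library). The 646 members were 646 of the 2578 chromosome 8 genes in the table, and of 11451 genes that met the same minimum on all chromosomes. The chromosome was chosen by a difference already seen between the mutant and control cultures, so calls in that contrast are given as a description and support nothing, and the tumor libraries were not used to choose the members. Near the minimum, Plekhg4, Gm16675 and Mef2b were just inside at 1.00, 1.01 and 1.01 CPM, and Gm6793, Fendrr and Gm7600 just outside at 0.954, 0.959 and 0.985 CPM. Of the members, 597 were protein coding and 20 were long noncoding RNAs, and the others were pseudogenes, whose reads may be shared with their parent genes.

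The study asked what truncating mutations of the mitochondrial gene mt-Nd5, a subunit of respiratory complex I, do to melanoma cells and to the tumors they form. B78-D14 is an amelanotic mouse melanoma line derived from B16 that lacks Cdkn2a, and all groups, controls included, were of this line. A mitochondrial base editor wrote the mutation, labelled mt.11944 or mt.12436 and written m.11944 and m.12436 here, into a share of the mitochondrial DNA copies near 60% or 40%, and sorted cells were grown with added uridine. RNA was measured by bulk sequencing of untreated cultures and of untreated fragments of subcutaneous tumors, grown in male C57BL/6 mice with an intact immune system. The groups were 4 cultures of m.11944 60% cells and 4 wild-type control cultures, and 7 tumors of m.12436 60% cells, 7 tumors of m.12436 40% cells and 4 wild-type control tumors. The cultures and the tumors thus carried different mutations and no difference between them is tested, and how many separately edited populations stand behind a group is not given in the sources used here. The edit and any other difference between the edited and control cells cannot be told apart. Nothing in the labels says that the numbered samples came from separate thaws, dishes or animals, so p-values measure the spread between these samples only.

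A diploid cell holds a pair of each autosome, and melanoma lines often carry chromosomes, or stretches of them, in other numbers. RNA sequencing measures transcripts and does not count DNA copies. No DNA was measured in the files used here, so the values below are RNA levels in the order of the genes along the chromosome. Mouse chromosome 8 holds genes of many kinds, among them translation factors, mitochondrial enzymes, replication factors, the metallothioneins and the collagen IV chains.

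The tables held between 16475735 and 36173502 counts per library. Melanocyte genes were nearly absent from the cells of this amelanotic line, and Tyr, Mlana, Tyrp1, Pmel and Sox10 each averaged under 1 CPM in both sets of cultures, whereas Mitf was at 15 CPM ± 7.53 (SD) in the 4 control cultures. In the control tumors the 7 melanocyte markers summed to between 22.4 and 66.2 CPM, and Dct ranged from 0 to 798 counts, so 1 control tumor held most of it. The leukocyte marker Ptprc was at 73.0 CPM ± 18.6 (SD, n = 4) in control tumors, 79.6 ± 14.3 (n = 7) in m.12436 40% tumors and 112 ± 26.9 (n = 7) in m.12436 60% tumors, and had at most 1 count in any culture. mt-Nd5 itself was at 236 CPM ± 130 in control cultures and 278 ± 174 in m.11944 60% cultures, a difference within the spread, and its level does not check the labels because the edits change its sequence.

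The windows below are 10 Mb stretches of the chromosome, numbered 1 to 13 from the centromeric end, and a gene belongs to the window that holds its 5′ end. Values are centred: the median log2 fold change of the 10805 expressed genes on the other chromosomes was subtracted. A centred value of 0 therefore means the same change as the rest of the genome, and the subtracted medians lay between -0.013 and 0.005.

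The stretches before the 5′ end of a pair of genes are shown because both genes were called lower in the m.12436 60% tumors than in either other tumor group. Ckap2, a microtubule protein of the mitotic spindle, is in window 3 and its 250 bases are chr8:22675853-22676102 on the minus strand. Irx5, a homeobox transcription factor, is in window 10 and its 250 bases are chr8:93084003-93084252 on the plus strand, where exons of another annotated transcript also lie. Sequences are GRCm39, 5′ to 3′ toward the gene, with each match to CANNTG in capitals, the E-box that basic helix-loop-helix factors such as Mitf bind.

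Ckap2: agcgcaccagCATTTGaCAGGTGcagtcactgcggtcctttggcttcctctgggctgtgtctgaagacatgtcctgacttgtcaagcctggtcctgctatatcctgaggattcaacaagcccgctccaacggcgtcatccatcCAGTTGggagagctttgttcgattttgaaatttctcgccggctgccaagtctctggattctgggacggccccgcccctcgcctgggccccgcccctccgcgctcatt

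Irx5: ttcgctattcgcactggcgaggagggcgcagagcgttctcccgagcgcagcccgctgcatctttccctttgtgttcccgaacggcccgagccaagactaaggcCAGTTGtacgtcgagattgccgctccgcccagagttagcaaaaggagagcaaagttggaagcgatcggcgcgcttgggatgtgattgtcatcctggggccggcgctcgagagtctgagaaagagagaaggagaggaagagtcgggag

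Ckap2 had 3 matches to CANNTG, 1 of them CAGGTG, and Irx5 had 1, while Stox2, which was also called lower against both groups, had none in its 250 bases. CANNTG reads the same on both strands, and every CAGGTG is also a CANNTG. Over all members, 59.4% of such stretches held CANNTG, beside 61.9% over the expressed genes of all chromosomes, and 17% beside 16.1% held CAGGTG on either strand. TATAAA on either strand was in 7.59% of members and 8.65% of all, so the members' upstream stretches had these letters about as often as others. The matches are descriptions of letters and say nothing of binding.

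In cultured cells the members of chromosome 8 were slightly lower in m.11944 60% cultures along most of the chromosome. The median centred log2 difference was -0.092, which is 6.20% lower, with quartiles at -0.206 and 0.027, against quartiles of -0.110 and 0.127 on the other chromosomes. Of the 646 members, 443 (68.6%) lay below 0. These values come from the contrast that picked the chromosome.

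The cultures are numbered 1 to 4 in both groups and same-numbered cultures deviated together, so they are set out as pairs. The numbers may also mark culture states that several cultures shared. Subtracting the control culture of the same number, the centred chromosome 8 median was -0.106, -0.114, -0.095 and -0.091 in pairs 1 to 4. All 4 pairs gave nearly the same value. Against the mean of the control cultures the 4 mutant cultures were at -0.131, -0.117, -0.066 and -0.079, and the 4 control cultures, which that mean contains, between -0.012 and 0.015. The groups did not overlap. As a share of the counts of all expressed genes, members took 4.43% to 4.51% in mutant cultures and 4.72% to 4.77% in control cultures.

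By window, 11 of 13 medians were below 0, and those same 11 windows were below 0 in each of the 4 pairs. The exceptions were neighbors, windows 5 and 6 (40 to 60 Mb), at 0.014 over 31 members and 0.034 over 13 members. The lowest windows were window 9 (80 to 90 Mb) at -0.195 over 76 members, window 4 (30 to 40 Mb) at -0.184 over 24 members and window 10 (90 to 100 Mb) at -0.166 over 44 members. The far end was nearest to 0 among the low windows, with -0.049 over the 92 members of window 13. On the other chromosomes, 120 of 239 windows with at least 10 genes (50.2%) were below 0 and 9 (3.77%) were at or below -0.13, a level that 4 of the 13 windows of chromosome 8 reached.

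**Figure D1:**
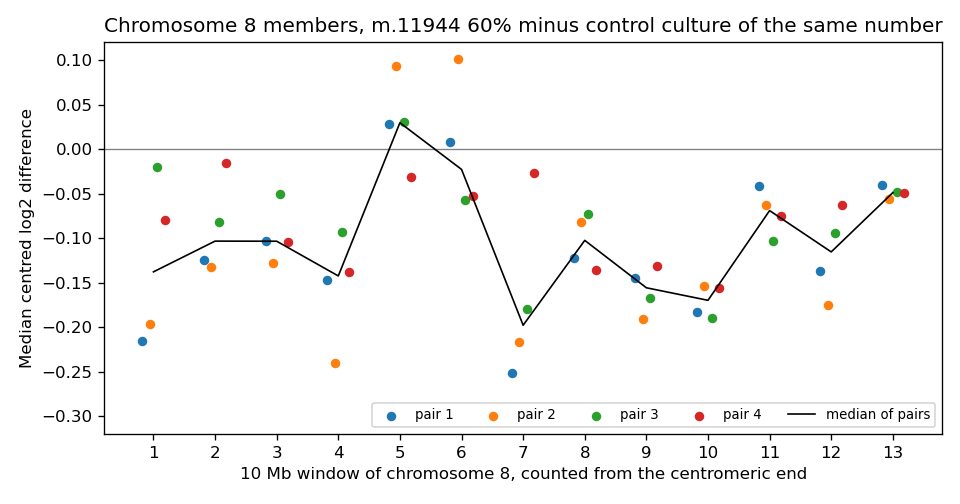
Median centred log2 difference (vertical axis) of the chromosome 8 members in each 10 Mb window (horizontal axis, counted from the centromeric end), for each of the 4 pairs of cultures (points) and the median of the pairs (line). In 11 of 13 windows all 4 pairs lie below 0, and windows 5 and 6 have pairs on both sides of it.

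Among the other chromosomes 16 was lower than 8 in the same contrast, with a median of -0.144 over 365 genes and -0.127 to -0.175 in the 4 pairs. Chromosome 17 stood highest at 0.060 over 573 genes, and chromosomes 1 to 19 and X ranged from -0.144 to 0.060. Chromosome 8 was thus the second lowest of 20 and was not alone in a shift of this size.

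**Figure D2:**
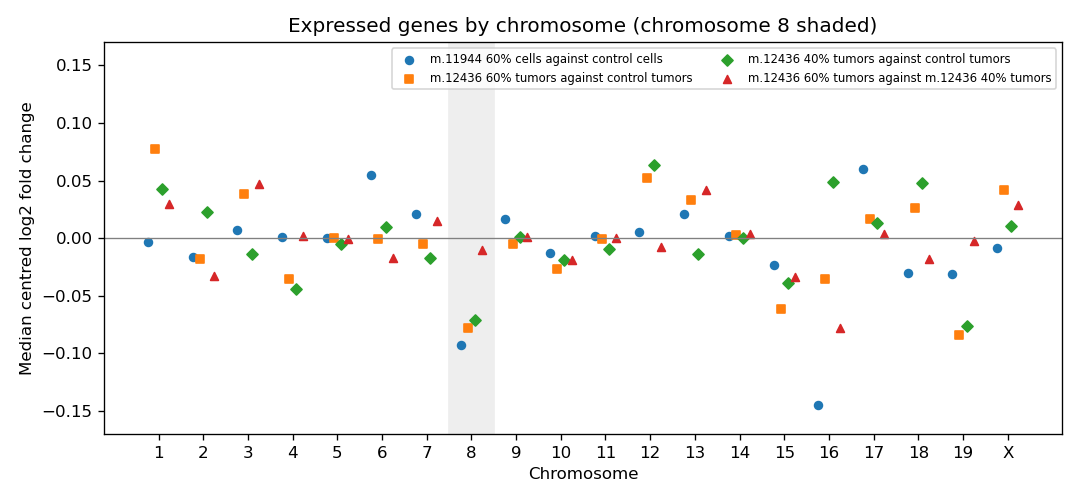
Median centred log2 fold change (vertical axis) of the expressed genes on each chromosome (horizontal axis) in the 4 comparisons (symbols), with chromosome 8 shaded. Chromosome 8 is second lowest in the cells and against the control tumors in both mutant tumor groups, with chromosome 16 lowest in cells and chromosome 19 lowest in those tumors, and is near 0 between the tumor groups.

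In cells the centred median was lower for genes with more reads, on chromosome 8 and on the other chromosomes. It was 0.013 for the 143 members under 10 CPM, -0.099 for the 390 from 10 to 100 CPM and -0.136 for the 113 above. The other chromosomes moved the same way, at 0.070, 0.004 and -0.051. GC content was 51.1% at the median for the members and 49.0% for the others, and centring within classes of GC content left the shift at -0.093.

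Gene by gene, edgeR called 5 of 12930 genes (0.0387%) without regard to the pairs and no member among them, while 41 members (6.35%) were lower and 4 higher at an unadjusted p under 0.05, where 2.27% of all genes were lower. limma-voom called 0 members and DESeq2 called 4, of 84 genes in all. With the culture number as a block, 84 members were called lower where 4.08% of all genes were, and 7 were called higher where 3% were. Members below 0 in all 4 pairs numbered 207 (32%) where 15.5% of expressed genes were, and members above 0 in all 4 numbered 32 (4.95%) where 14.4% were. The rule for the chromosome used this contrast, and nothing is read from the counts.

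The members lowest by the blocked fit, among those with a mean log2 CPM of at least 1, were of unrelated kinds. Stox2, a winged-helix protein, was at 3.68, 3.20, 3.95 and 3.64 CPM in mutant cultures 1 to 4 and at 7.13, 7.96, 5.43 and 5.59 CPM in control cultures 1 to 4. Every mutant culture was below every control culture, with a log2 difference of -0.83 ± 0.159 (SE). Cyba, the p22phox subunit of the NADPH oxidases, was at 15.1, 15.6, 9.39 and 9.90 CPM against 28.7, 27.9, 12.6 and 17.1 CPM. The groups overlapped, yet each mutant culture was below its partner, by -0.75 ± 0.102 (SE). Rrad, a small GTPase, and Sipa1l2, a GTPase activator, differed by -0.71 and -0.66 on the log2 scale. Below that level, Tbc1d9, Gdf15 and Irf8 were lower still. Gdf15, a stress-induced cytokine, was at 1.29, 1.47, 0 and 0.109 CPM in mutant cultures beside 3.76, 5.05, 0.0569 and 0.237 CPM in control cultures. Tbc1d9 was at 0.862, 0.865, 0.728 and 0.684 CPM beside 3.47, 3.27, 1.45 and 1.29 CPM, without overlap. These genes were chosen after their values were seen.

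A few members stood above their neighbors. Nrp1, a receptor for semaphorins and VEGF in window 13, was at 14.8, 11.9, 52.9 and 43.1 CPM in mutant cultures and 7.75, 7.56, 39.4 and 31.5 CPM in control cultures. Cultures 3 and 4 of both groups were far above cultures 1 and 2, and within each number the mutant culture was higher, by 0.59 ± 0.0997 (SE). Tppp3, Nudt7, B3gnt3 and the palmitoyltransferase Zdhhc2 were higher by 0.72, 0.48, 0.38 and 0.36.

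The member with the most reads in a window shows how small the shift was for single genes. Got2, the mitochondrial aspartate aminotransferase of the malate-aspartate shuttle, in window 10, was at 417, 364, 371 and 355 CPM in mutant cultures and 474, 431, 423 and 434 CPM in control cultures. The groups did not overlap, at a log2 difference of -0.23 ± 0.060 (SE). Aars1, the alanyl-tRNA synthetase in window 12, differed by -0.33, the RNA-binding protein gene Elavl1 in window 1 by -0.31, and Eif4ebp1, a repressor of cap-dependent translation in window 3, by -0.29. Slc25a4, the ADP/ATP carrier in window 5, and Hmgb2, a chromatin protein in window 6, differed by 0.03 and 0.06, so the most-read members of the 2 windows above 0 were near it. Col4a1, Dusp4, Cpe, Calr, Cyb5b and Rpl13 lay between -0.58 and -0.04, and Dusp4, a MAP kinase phosphatase in window 4, was the lowest of them.

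In m.12436 60% tumors the members were lower than in control tumors, with the lowest windows between 70 and 100 Mb. The median centred log2 fold change was -0.078, which is 5.25% lower, over the 645 members that were tested, and 459 of them (71.2%) lay below 0. The 7 mutant tumors were at -0.071, -0.105, -0.032, -0.063, -0.088, -0.138 and -0.093, and the 4 control tumors, whose mean is the reference, between -0.006 and 0.015. In tissue, fewer cells of a type and less RNA per cell cannot be told apart. Every mutant tumor was below every control tumor, and the members' share of expressed counts was 4.48% to 4.84% against 5.01% to 5.05%.

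edgeR called 49 of 645 members lower where 1.34% of all genes were called lower, and 1 member higher where 0.962% were. That is 7.60% of the members in the lower direction. Members with every m.12436 60% tumor below every control tumor numbered 78 (12.1%), where 2.66% of all tested genes had this order. The count of calls rests on single tumors: without control tumor 1 or control tumor 3, 10 and 6 members were called, without m.12436 60% tumor 1, 2, 4 or 7, 27, 31, 30 and 30 were, and without m.12436 40% tumor 2, which enters only through the shared estimate of spread, 90 were. With the leukocyte marker Ptprc as a covariate no member was called at adjusted p under 0.1, while the median shift was -0.075. In that fit edgeR called 17 genes in all, and 58 members (8.99%) were lower and 10 (1.55%) higher at an unadjusted p under 0.05, where 3.57% and 3.84% of all genes were.

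Along the chromosome, 12 of 13 windows were below 0, where 44.8% of the 239 windows elsewhere were. Windows 8, 9 and 10 (70 to 100 Mb) were at -0.136, -0.157 and -0.167, with 85.7%, 81.6% and 90.9% of their members below 0. The other 10 windows lay between -0.071 and 0.004, with window 5 the one above 0. Elsewhere in the genome 1 of 239 windows was at or below -0.13. Of the 49 members called lower, 30 were among the 225 in windows 8 to 10 and 19 among the 420 others.

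In m.12436 40% tumors the members were lower than in the same control tumors by -0.071, with no such stretch. All 13 windows were below 0, between -0.102 in window 2 and -0.033 in window 4, and 495 of 645 members (76.7%) lay below 0. No gene on any chromosome (0% of 16213) was called by edgeR, with 825 at an unadjusted p under 0.05. limma-voom called none and DESeq2 called 5, none of them a member, 65 members (10.1%) were lower and 1 higher at an unadjusted p under 0.05, where 2.85% of all genes were lower, and without m.12436 40% tumor 7 edgeR called 1 member. The 7 tumors were spread more widely than the m.12436 60% tumors, at -0.006, -0.183, -0.077, -0.096, -0.054, -0.058 and -0.028, and tumor 1 reached the range of the controls. Both mutant groups are set against the same 4 control tumors, so a property of those 4 would appear in both comparisons. Chromosome 19 was lower still in both, at -0.084 and -0.076 over 418 genes.

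**Figure D3:**
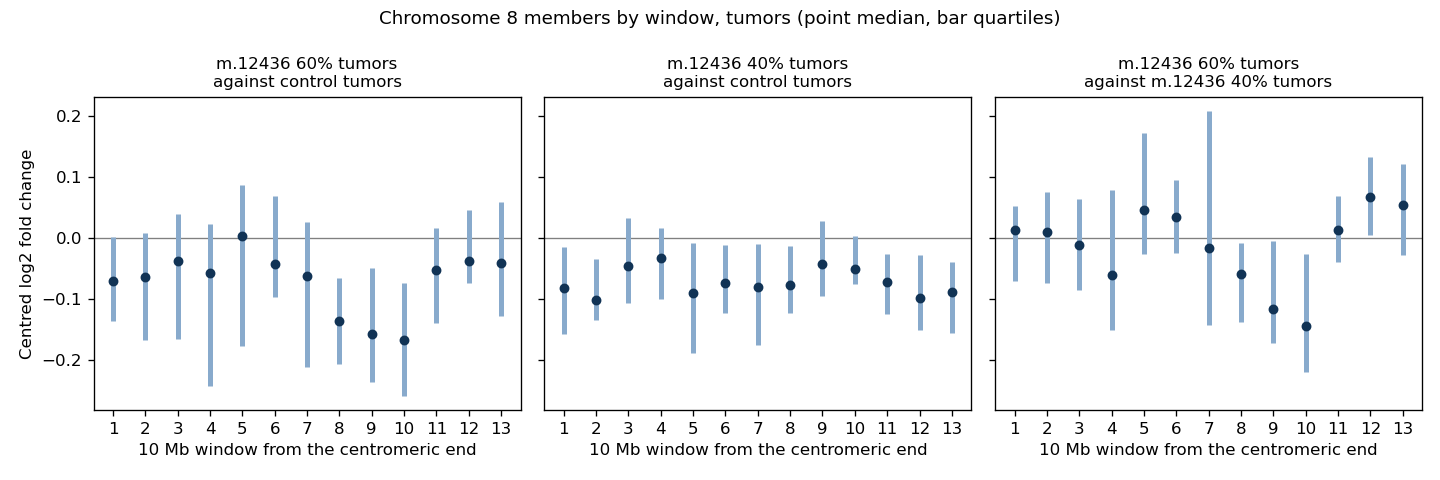
Centred log2 fold change (vertical axis) of the chromosome 8 members in each 10 Mb window (horizontal axis) in the 3 tumor comparisons, as the median (points) and the quartiles (bars). Windows 8 to 10 are lowest in the m.12436 60% tumors against control tumors, at -0.136 to -0.167, windows 9 and 10 are lowest against m.12436 40% tumors, at -0.116 and -0.144, and the m.12436 40% tumors lie evenly below 0 against control tumors.

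The comparison of the mutant tumor groups with each other takes no difference from the control tumors. Those tumors enter its fit through the shared filter, scaling and estimate of spread. The windows of this comparison fell on both sides of 0. The members' median was -0.010, with 351 of 645 (54.4%) below 0, a difference smaller than the SDs of the single tumors' levels, 0.034 and 0.057. Windows 8, 9 and 10 were lower in m.12436 60% tumors by -0.059, -0.116 and -0.144, while windows 11, 12 and 13 were at 0.014, 0.068 and 0.054. Window 4 was at -0.060 over 24 members, windows 3 and 7 were at -0.012 and -0.016, and the others lay between 0.010 and 0.047. edgeR called 17 members lower, where 0.993% of all genes were, and 5 higher, where 0.814% were. Of the 17, 14 lay in windows 8 to 10. The count fell to 6, 7, 9 and 8 members in either direction without m.12436 60% tumor 1, 2, 4 or 7, fell to 10 and 7 without m.12436 40% tumor 1 or 6 and rose to 49 without m.12436 40% tumor 4. With Ptprc as a covariate 1 member was called, Vegfc, and the other 21 calls were lost. The skeletal muscle markers Ckm, Myh4 and Acta1 varied among tumors of every group, with overlap, and summed to a median of 0.317 CPM in m.12436 60% tumors, with a range of 0.103 to 176, of 88.7 CPM (30.8 to 154) in m.12436 40% tumors and of 50.1 CPM (0.230 to 111) in control tumors. Their part in the members' levels was not tested.

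The stretch from 70 to 100 Mb was picked after its windows were seen, and its level in single tumors is given as a description. Subtracting the median of the other members of chromosome 8 in the same tumor, it stood at -0.092, -0.1003, -0.090, -0.090, -0.110, -0.090 and -0.089 in the 7 m.12436 60% tumors, a mean of -0.095 with an SD of 0.008. In the 7 m.12436 40% tumors it stood at 0.151, -0.069, 0.016, -0.031, 0.006, 0.048 and -0.010, and in the 4 control tumors between -0.037 and 0.046. Each m.12436 60% tumor was below each tumor of the other groups. The SD of the m.12436 40% tumors was 0.070. In the cells the same difference was -0.114, -0.090, 0.006 and -0.031 in mutant cultures 1 to 4. In control cultures 1 to 4 it was -0.058, -0.062, 0.010 and 0.068. The groups overlapped there and moved with the culture number, yet each mutant culture was below the control culture of the same number. By the fold changes in cells, the stretch was at -0.126 and the other members at -0.067.

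**Figure D4:**
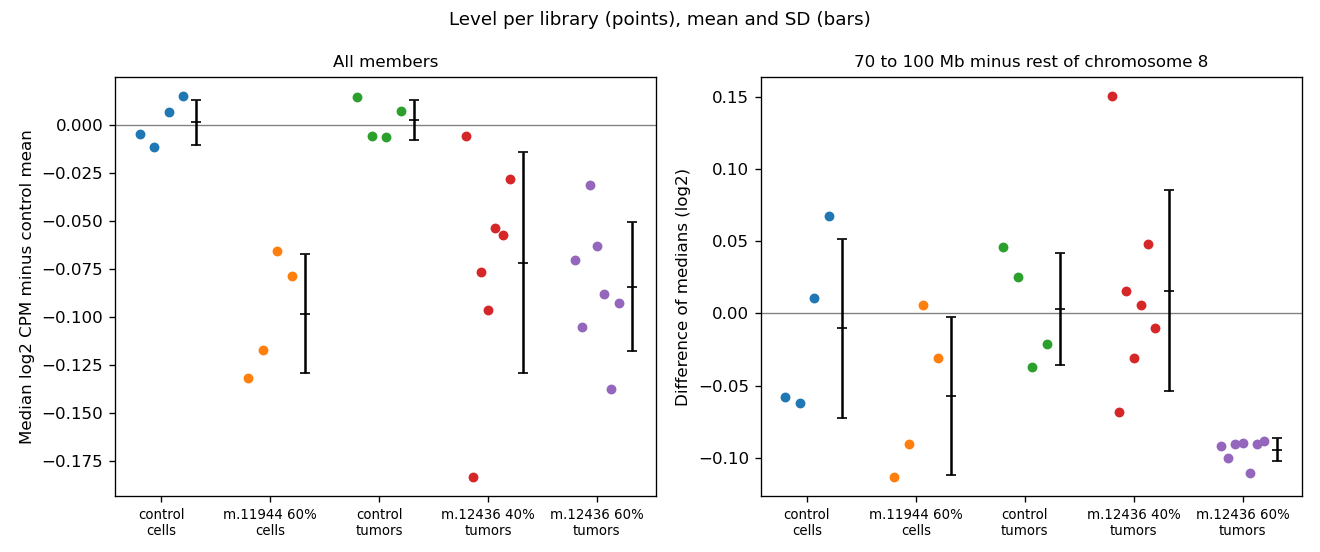
Left, median log2 CPM of the chromosome 8 members minus the control mean, centred (vertical axis), and right, the level at 70 to 100 Mb minus that of the other members (log2), in each library (points) of the 5 groups (horizontal axis), with the mean and SD of each group beside them. The m.12436 60% tumors are tightly grouped on the right, between -0.110 and -0.089, below all other tumors.

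Genes in this stretch had a median GC content of 53.1% against 50.02% in the other members. Centring within classes of GC content left the stretch at -0.094 below the others in m.12436 60% tumors against controls, near the -0.099 without it. With Ptprc as a covariate the difference was -0.064, and among members at least as high in control cells as in control tumors it was -0.066. Between m.12436 60% and 40% tumors these values were -0.122, -0.108 and -0.132, beside -0.114. Smaller windows of 5 Mb placed the lowest level between 95 and 100 Mb, at -0.217 over 28 members against controls, and the next window with at least 10 members, 105 to 110 Mb, was at -0.049 over 65. The stretch was not even or alone at this scale. Inside it, 90 to 95 Mb was at -0.085 over 16 members, and outside it, 30 to 35 Mb was at -0.191 over 15. Against m.12436 40% tumors these windows were at -0.030 and -0.105.

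**Figure D5:**
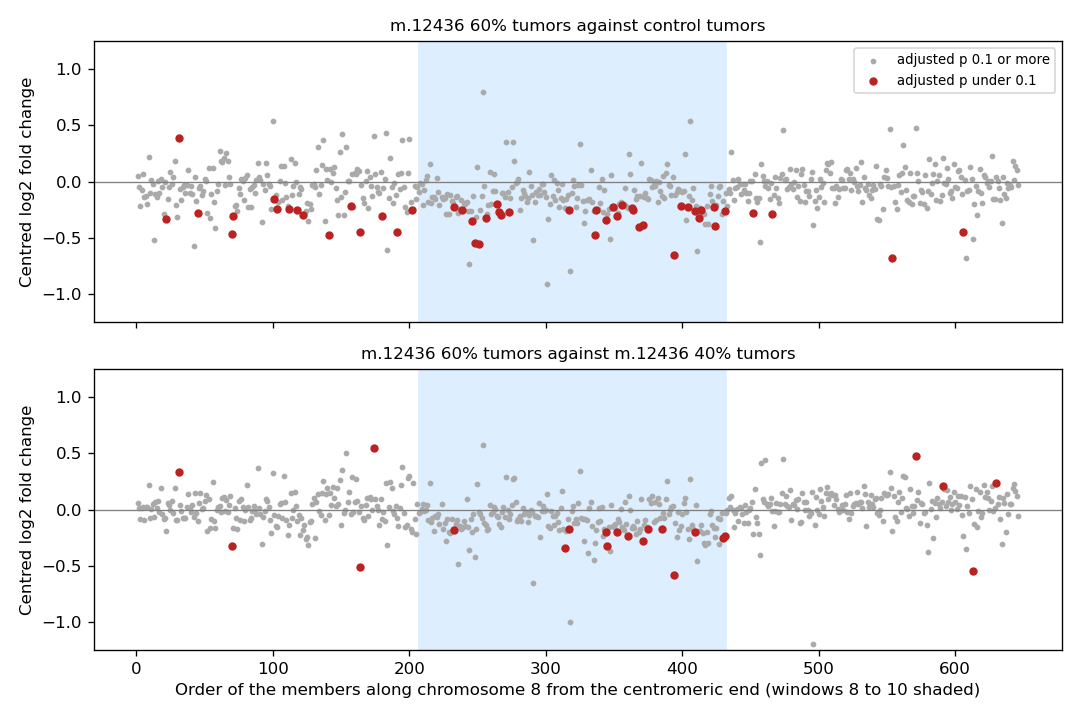
Centred log2 fold change (vertical axis) of each member in its order along chromosome 8 (horizontal axis), m.12436 60% tumors against control tumors (top) and against m.12436 40% tumors (bottom), with members at adjusted p under 0.1 in red, windows 8 to 10 shaded, and 1 member beyond 1.2 drawn at the edge of the lower plot. Called members crowd into the shaded stretch, 30 of 49 lower calls above and 14 of 17 below.

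Of the 49 and 17 members called lower against control and against m.12436 40% tumors, 10 were in both lists, and both lists share the m.12436 60% tumors. Irx5 was at 3.44 to 4.92 CPM in the 7 m.12436 60% tumors with a median of 4.57, at 6.42, 8.22, 7.04 and 5.64 in the control tumors and at 5.62 to 8.91 in the m.12436 40% tumors. It fell by 0.66 ± 0.141 (SE) against controls and by 0.59 ± 0.123 against m.12436 40% tumors, with edgeR adjusted p of 0.0296 and 0.0269. The m.12436 60% tumors lay below all others.

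Ckap2 was at 44.0 to 49.4 CPM with a median of 48.3 in m.12436 60% tumors, at 60.9, 66.6, 78.1 and 59.0 CPM in control tumors and at 50.5 to 66.3 CPM in m.12436 40% tumors. No m.12436 60% tumor reached the lowest tumor of either other group. Its fold changes were -0.48 ± 0.077 and -0.34 ± 0.067 (log2, SE), with edgeR adjusted p of 0.00535 and 0.0189, and the first was the smallest adjusted p of any member against controls. In cells it differed by 0.08, and its mutant and control cultures overlapped, so the smallest adjusted p in tumors belonged to a gene outside the low stretch.

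Stox2 was at 6.20 to 8.69 CPM with a median of 7.65 in m.12436 60% tumors and at 8.08, 10.5, 11.2 and 11.4 CPM in control tumors. Only control tumor 1 reached the mutant range, and the edgeR adjusted p was 0.0888 for a change of -0.46 ± 0.127 (SE). Against m.12436 40% tumors, at 9.35 to 13.8 CPM, it fell by 0.52 ± 0.110, adjusted p = 0.0269 (edgeR). Like Ckap2 it lies outside 70 to 100 Mb, in window 5.

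Of the translation and RNA members, Upf1 and Abce1 lay in the low stretch and were called lower against both other tumor groups. Others of the list lay outside it, among them Aars1 in window 12 and Rpl13 in window 13. Upf1, the helicase of nonsense-mediated decay in window 8, was at 152 to 174 CPM in m.12436 60% tumors, 179 to 192 in control tumors and 171 to 196 in m.12436 40% tumors. It fell by 0.23 ± 0.047 and by 0.19 ± 0.040 (log2, SE), with edgeR adjusted p of 0.0208 and 0.0265. Abce1, the ribosome recycling ATPase in window 9, was at 168 to 186 CPM in m.12436 60% tumors against 193 to 223 CPM in control tumors. It fell by 0.27 ± 0.057, adjusted p = 0.0307 (edgeR), and in cells it was 336, 330, 413 and 356 CPM in mutant cultures beside 414, 415, 574 and 408 in control cultures. These genes were named for their list and for both tumor calls after their values were seen.

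Against controls, the members with the largest falls also included Cdh13, an atypical cadherin in window 12, at 13.8 to 27.2 CPM against 31.9, 21.6, 44.6 and 25.7. The groups overlapped, with a change of -0.69 ± 0.181 (SE) and an edgeR adjusted p of 0.0748. Without control tumor 3 the change was -0.45 (edgeR adjusted p = 0.42), and with Ptprc as a covariate it was -0.21 (edgeR adjusted p = 0.82). Zdhhc2 was at 21.9 to 27.3 CPM against 32.1 to 37.4 CPM, a fall of 0.49 ± 0.111 with adjusted p = 0.0404 (edgeR), whereas each mutant culture was above its partner in the m.11944 60% cells. The m.12436 40% tumors were at 19.6 to 35.5 CPM, and only tumor 7, at 35.5, reached the range of the control tumors. Rab3a, a GTPase of vesicle release, and the noncoding 2010320M18Rik, both in window 8, fell by 0.56 and 0.57.

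Rab20, an endocytic GTPase in window 2, was the 1 member that rose, at 8.18 to 9.93 CPM against 6.26 to 7.51 CPM. Its change was 0.38 ± 0.101 (SE), with edgeR adjusted p = 0.0801. Against m.12436 40% tumors it rose as well, by 0.32 ± 0.086, as did Vegfc, a growth factor of lymphatic vessels in window 6, by 0.53 ± 0.1003, and Irf8, a transcription factor of myeloid cells in window 13, by 0.46 ± 0.120. Vegfc was at 25.1 to 32.1 CPM in m.12436 60% tumors and 14.9 to 24.4 CPM in m.12436 40% tumors, without overlap. Irf8 was at 51.9 to 82.5 CPM and 39.8 to 59.3 CPM, with overlap, and with Ptprc as a covariate its change was 0.14 (edgeR adjusted p = 0.59). Galns, a lysosomal sulfatase, and Sprtn, a DNA-protein crosslink protease, both in window 13, rose by 0.20 and 0.22, so the far end held 3 of the 5 rises.

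Smad1, a mediator of BMP signaling in window 9, was at 40.9 to 52.3 CPM in m.12436 60% tumors and 48.4 to 67.5 CPM in m.12436 40% tumors, a fall of 0.36 ± 0.068 with edgeR adjusted p = 0.0160. In control tumors it was at 53.7, 52.7, 54.1 and 55.9 CPM, above every m.12436 60% tumor, with a change of -0.24 ± 0.0789 and an edgeR adjusted p of 0.14.

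The members were also sorted into 9 lists by function, which are described by counts and medians and were not tested against each other. Beside the median of -0.078 over all members in m.12436 60% tumors against controls, the 19 members for DNA replication, repair and mitosis were at -0.202, with 18 below 0 and 6 called lower, where 1.34% of all genes were. These were Orc6 of the origin recognition complex, Gins3 of the replicative helicase, the histone chaperone Asf1b, Tfdp1, the partner of E2F factors, Hmgb2 and Shcbp1, with falls between 0.29 and 0.48. In cells this list was at -0.048, beside -0.092 over all members.

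The 21 mitochondrial members were at -0.145 with 19 below 0. Got2, Slc25a4, Coq9 of ubiquinone synthesis and the ribosomal protein gene Mrpl34 fell, by 0.23 to 0.33. The 16 translation and RNA members were at -0.164 with 15 below 0, and 5 fell, Farsa, Abce1, Upf1, Lsm4 and Polr2c. In cells the same 16 were all below 0, at a median of -0.230. The 13 redox and stress members were all below 0 in m.12436 60% tumors against controls, at -0.215, with none called, and Gsr, the glutathione reductase, had -0.27 at an edgeR adjusted p of 0.16.

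Some redox members varied widely between tumors of 1 group. Nqo1, a quinone reductase induced by oxidative stress, had a median of 6.55 CPM in the 7 m.12436 40% tumors but reached 149 CPM in 1 of them, beside 5.55 to 9.14 CPM in control tumors and 4.89 to 6.18 CPM in m.12436 60% tumors. It has the largest difference of any member between the mutant tumor groups, -2.26 ± 0.776 (log2, SE), with an edgeR adjusted p of 0.19. Hmox1, which degrades heme, ranged from 56.6 to 355 CPM over the 4 control tumors and from 65.3 to 179 CPM over the m.12436 60% tumors. Its change of -0.92 was the largest of any member against controls, at an edgeR adjusted p of 0.30, and the groups overlapped. Both were named after their values were seen.

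The 16 immune members had a median of 0.241 in m.12436 60% tumors against controls, with 4 below 0 and none called in either direction. Tlr3 had 0.41, Plcg2 0.46 and Nlrc5 0.53, at edgeR adjusted p of 0.13, 0.14 and 0.31. In cells, 13 of the 16 were below 0, at -0.165. Ptprc moved with these values, from 73.0 CPM ± 18.6 in the 4 control tumors to 112 ± 26.9 in the 7 m.12436 60% tumors, and the summed macrophage markers ranged from 732 to 935 CPM and from 600 to 1087 CPM. Beyond the fit with Ptprc as a covariate, the part of leukocytes in the members' levels was not tested.

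The 21 transcription and chromatin members were at -0.017 with E2f4 and Ash2l called lower, by 0.28 and 0.16. The 18 proteasome, lysosome and autophagy members were at -0.034 with none called, the 10 adhesion and matrix members at -0.186 with Cdh13 called lower, and the 12 transport, receptor and signaling members at -0.097 with Slc27a1 and Prkaca called lower. In m.12436 40% tumors against controls the 9 medians ran from -0.148 for replication to 0.003 for the immune members, and no member was called. Of the 3 members with the most reads in each of the 9 lists, those not yet given had values in m.12436 60% tumors against controls from -0.34 for Mcm5, a subunit of the replicative helicase, to 0.13 for the integrin gene Itgb1, and none was called.

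In the tumors too the centred median of the members was lower for genes with more reads. In m.12436 60% tumors against controls it was -0.033 for the 142 members under 10 CPM in cells, -0.077 for 390 from 10 to 100 CPM and -0.124 for 113 above, beside 0.018, 0.005 and -0.023 on the other chromosomes. In m.12436 40% tumors the values were -0.051, -0.072 and -0.080, beside -0.015, 0.006 and -0.005.

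The chromosome 8 genes that earlier results of these data had named were not members. Cdh1, Slc7a2 and Slc6a2 were at 0.0295, 0.00448 and 0.395 CPM in the cultures, below the minimum. In m.12436 60% tumors against controls they changed by 1.43, 2.09 and -2.87 on the log2 scale, with edgeR adjusted p of 0.0101, 0.00922 and 0.0360, while no member changed by as much against controls.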

How the data were processed

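The authors deposited 1 table of gene counts for the bulk RNA sequencing, with 56748 genes. According to the study's methods, reads were aligned to the mouse genome and assigned to genes; the deposited counts are whole numbers without normalization. Columns were matched to samples by name, 26 were used, and 21 columns were not used because their names could not be tied to a sample's labels. Gene positions came from the GENCODE annotation of GRCm39, which placed 56017 genes by identifier.

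Libraries held 16475735 to 36173502 counts, and no pair of libraries was identical. edgeR 4.0.16 in R 4.3.3 (TMM scaling, filter on low counts, robust quasi-likelihood test, Benjamini-Hochberg adjustment, threshold 0.1 as in the study) was fitted to cells and to all 18 tumors, the 3 tumor groups sharing 1 estimate of spread. CPM for the minimum and for classes of read level uses the column total. CPM of groups and single libraries uses that total with TMM scaling, and log2 levels per library a prior count of 2. Same-numbered cultures correlated in their deviations from the group means, with r of 0.718 to 0.832, and other pairs at a mean of -0.264. Blocked values are therefore given. In both groups cultures 1 and 2 stood apart from cultures 3 and 4 for some genes. Mcm5 was at 178, 174, 394 and 328 CPM in mutant cultures and 140, 130, 466 and 363 CPM in control cultures. The correlation therefore does not show 4 separate pairs. Same-numbered tumors did not correlate in this way, with r between -0.346 and 0.159 over the 3 comparisons.

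Named genes were the most-read member of each window, up to 5 rises and 5 falls per comparison among called members with a mean log2 CPM of at least 1, the 3 most-read members of each of 9 lists, and 3 genes named by earlier results. Members called within a list, and a few others marked so, were named after their values were seen. Some genes that the rule names are not reported here. The members, lists and windows were chosen with earlier results of these data known. Alternatives were limma 3.58.1 (voom), DESeq2 1.42.0, its size factors, other filters, centrings and windows, the replicate block, Ptprc as a covariate and leaving out each library. Scripts were tested on simulated data.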

Additional observations from a re-analysis of the deposited data

Results flagged for a closer look

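Irx5 in the m.12436 40% tumors had 1 tumor far from the others: tumor 1 was at 8.91 CPM and the other 6 between 5.62 and 6.48 CPM. The gap was 0.740 of the group's range. Among 75 groups of values looked at, 1 was found in this way, and chance gives about 1 in 20. The same tumor had the highest level of the 70 to 100 Mb stretch against the rest of chromosome 8, at 0.151. Without it, Irx5 was still called lower in m.12436 60% than in m.12436 40% tumors.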

How the results depend on the processing

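The median shift of chromosome 8 stayed negative in cells and against control tumors in every alternative. Leaving out single libraries gave -0.1033 to -0.08698 in cells, -0.09064 to -0.07273 in m.12436 60% tumors and -0.0835 to -0.05643 in m.12436 40% tumors. Between the mutant tumor groups it ran from -0.0216 to 1.429e-05, the sign turning without m.12436 40% tumor 7. Windows below 0 numbered 11 to 12, 12 to 13, 13 and 5 to 8 of 13. With 5 Mb windows, 17 were below 0 in cells and 10 between the mutant tumor groups. Members called in m.12436 60% tumors against controls numbered 50 in all, 20 at adjusted p under 0.05, 91 with DESeq2, 30 with no filter on low counts, 13 with the replicate block, 0 with Ptprc as a covariate, 102 with the groups compared alone and 6 to 90 when 1 library was left out. Between mutant tumor groups 22 were called, 6 at adjusted p under 0.05, 60 with DESeq2, 12 with no filter, 14 with the replicate block, 1 with Ptprc and 6 to 49 without 1 library. Tumor numbers did not pair the tumors. In m.12436 40% tumors against controls 0 to 1 were called without 1 library. In cells DESeq2 called 4 members and the replicate block 91. When 1 library was left out, the stretch at 70 to 100 Mb against the rest ran from -0.1163 to -0.08261 in m.12436 60% tumors against controls. Against m.12436 40% tumors it ran from -0.1356 to -0.09341. Against controls it was smaller with Ptprc as a covariate, at -0.06378, and among members at least as high in control cells as in control tumors, at -0.06566. In m.12436 40% tumors against controls the stretch ran from -0.003907 to 0.03178 without 1 library, turning without m.12436 40% tumor 1. In cells it ran from -0.1003 to -0.02767 without 1 library, beside -0.0595 with all cultures. For single genes, 308 of 476 alternatives over 26 results held their call, and 0 changed direction. In cells, where the call was that of the blocked fit, Stox2 held in 1 of 6 alternatives. The other genes named there held in none. The cause of these differences was not tested. Depth was not varied, and the 7, 7 and 4 tumors limit what a shift of this size can show for single genes.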
